A study of Homo sapiens with 12 samples.

Results

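PC-3 is an established human prostate cancer line, grown from a bone metastasis, that proliferates without androgen, and MS13 is a synthetic diarylpentanoid, a shortened analog of curcumin. The response described here is that of PC-3 cells exposed to 16 µM MS13 for 24 h, set against PC-3 controls that were given vehicle alone, and its members are the 6 samples so labelled of the 12 in the series, 3 per group. The other 6 samples are DU 145 cells, a second androgen-independent prostate line, with the same dose, time and controls, and they serve as the comparison line. PC-3 cells were kept in F-12K medium and DU 145 cells in EMEM, so that line and medium cannot be told apart wherever the lines are compared. Total RNA was hybridised to the nCounter PanCancer Pathway Panel, an assay that tags each transcript with a colour-coded reporter probe and counts the codes one by one, without amplification. Each treated group is 1 line at 1 dose and 1 time.

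By way of background, cells whose proteins misfold release heat shock factors, which bind repeated GAA and TTC letters in the promoters of chaperone genes, while stress in the endoplasmic reticulum raises CHOP and stress of many kinds raises the GADD45 genes and the cyclin-dependent kinase (CDK) inhibitor p21. Inhibition of CDKs keeps the RB protein bound to E2F factors, and E2F targets include most of the genes that copy DNA. In prostate cancer cells these pathways are studied beside PI3K-AKT signalling and beside the proteases and integrins of migration.

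The panel lists 770 genes, 40 of them housekeeping genes, with 8 negative and 6 positive control probes. Summed over the panel, the samples held 437471 to 495514 counts in MS13-treated PC-3 cells and 543954 to 587294 in PC-3 controls. Counts were divided by the geometric mean of the housekeeping genes, which gives the normalized counts below, and the mean of the negative probes plus 2 SD gave the background limits, 33.6 normalized counts in MS13-treated and 28.1 in control PC-3 cells. The gap between control replicates 2 and 3 was within counting noise (a chi-square statistic of 1.04 for each degree of freedom, against 1.17 to 2.21 for the other pairs of replicates), so they were added and counted as 1 sample, which leaves n = 2 in controls and n = 3 in MS13-treated cells, and a pair of control values below is control replicate 1 and then the sum. MS13 replicate 3 lay farthest from its group (2.21 and 1.70 by that statistic against replicates 1 and 2), and without it the counts of changed genes given below stood at 146 up and 250 down.

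MS13 changed the level of most genes tested, and more of them fell than rose. Of 684 genes with a mean of at least 10 counts, 402 passed edgeR's quasi-likelihood test with a p of at most 0.05 after Benjamini-Hochberg adjustment, or 58.8%, and the words rose, fell and changed are used below of such genes only. There were 150 rises (21.9% of the genes tested) and 252 falls (36.8%). Differentially expressed genes (DEGs), which also reached a fold change of 2, numbered 139 (20.3%), with 45 up (6.58%) and 94 down (13.7%). Among changes of over 4-fold the balance was the other way, with 14 rises and 5 falls. All 3 MS13 samples lay beyond both controls in 468 genes (68.4% of those tested), and this held for all 45 and all 94 DEGs. The series' design text speaks of technical repeats and the methods of biological replicates, which does not settle whether the replicates came from separate cultures, so the p-values measure only the spread between these samples, which may be technical.

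The balance of rises and falls moved with the scaling. Over all genes tested, the median log2 fold change was -0.09 with the 40 housekeeping genes, 0.10 with edgeR's trimmed mean of M-values (TMM, a shift of 0.19), -0.16 with the positive control probes and -0.18 with 39 housekeeping genes, and TMM gave 213 rises and 214 falls where the positive probes gave 140 and 269. CC2D1B, the gene left out in that last set, was under the background limit in both groups and is among the 5 housekeeping genes whose own means differed by 2-fold or more between the groups. A change that kept its direction and its call under all 4 scalings was found for 136 rises (19.9%) and 214 falls (31.3%), and 35 rises and 57 falls were DEGs under all 4. Of the 199 genes tested whose means stayed under both background limits, 20 changed, 19 of them up, and these include 10 of the 45 DEGs that rose and none of the 94 that fell. In the scatter plot of group means, the rises of stress genes stand far off the diagonal while the falls form a band along the 2-fold line.

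**Figure D1:**
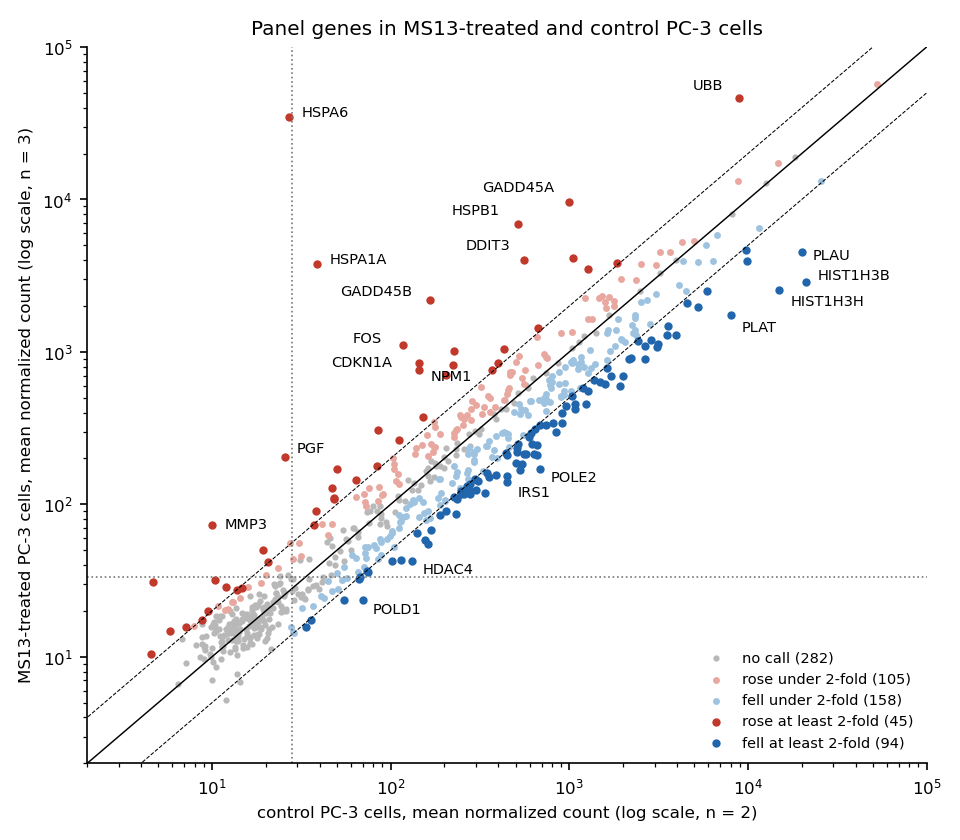
Mean normalized count of each of the 684 genes tested in MS13-treated PC-3 cells (vertical, n = 3) against control PC-3 cells (horizontal, n = 2), both on log scales. The solid line marks equal means, the dashed lines a 2-fold difference and the dotted lines the background limits of 33.6 and 28.1. HSPA6 and HSPA1A lie farthest above the diagonal, and the 94 DEGs that fell lie under the lower dashed line, 5 of the falls being of over 4-fold.

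Heat shock genes held the largest rises. HSPA6, a heat shock protein 70 gene that is silent without stress, had 32584, 34433 and 36456 normalized counts in MS13-treated cells, against 30.8 and 23.4 in control cells, whose mean is under the background limit, and the rise was at least 1227-fold (log2 fold change 10.38, SE 0.082, adjusted p = 9.3e-86). HSPA1A, which encodes the main inducible heat shock protein 70 and is nearly identical to HSPA1B, had 3428, 3814 and 4068 in MS13-treated cells, against 40.7 and 36.7 in control cells (log2 fold change 6.63, SE 0.09, adjusted p = 6.8e-69). HSPB1, the gene of the small heat shock protein HSP27, had 7031, 6906 and 6884 in MS13-treated cells, against 513 and 524 in control cells (log2 fold change 3.74, SE 0.052). In these 3 genes every MS13 sample was far above both controls, and all 45 DEGs that rose had groups without overlap. UBB, a polyubiquitin gene, had 44785, 46138 and 47093 in MS13-treated cells, against 8951 and 8804 in control cells, and it took 8.07% of all panel counts in MS13-treated cells, against 1.49% in control cells. HSPA2, an hsp70 gene known from the testis, and HSP90B1, which encodes the chaperone GRP94 of the endoplasmic reticulum, rose less, at 1.79 (SE 0.072) and 1.06 (SE 0.047) on the log2 scale. All 7 members of the list rose, with a median of 2.37 against -0.09 over all genes tested, but for RPS27A, a ubiquitin fusion gene at 0.12 (SE 0.035), the call was lost with the positive probes. Together the 7 genes summed to 150707 to 155104 normalized counts per MS13-treated sample, against 63067 to 65183 per control sample.

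The promoters of HSPA6, HSPA1A and HSPB1, the 3 genes with the largest rises, are shown because each holds the letters of a heat shock element core, GAANNTTC, given in capitals. The sequences are RefSeq's for GRCh38.p14, 210 bases from 200 before the transcription start to 10 after it, written 5′ to 3′ on the strand of the gene, for HSPA6 (chr1:161524340-161524549, plus strand), HSPA1A (chr6:31815343-31815552, plus strand) and HSPB1 (chr7:76302473-76302682, plus strand).
HSPA6: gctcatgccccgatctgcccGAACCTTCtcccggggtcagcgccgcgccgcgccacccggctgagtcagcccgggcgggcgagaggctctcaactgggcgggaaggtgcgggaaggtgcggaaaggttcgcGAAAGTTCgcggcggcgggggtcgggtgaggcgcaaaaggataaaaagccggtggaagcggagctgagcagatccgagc
HSPA1A: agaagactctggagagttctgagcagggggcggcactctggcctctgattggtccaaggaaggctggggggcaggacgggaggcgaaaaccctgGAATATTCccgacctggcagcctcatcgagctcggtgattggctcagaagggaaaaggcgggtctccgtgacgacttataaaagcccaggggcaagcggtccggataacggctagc
HSPB1: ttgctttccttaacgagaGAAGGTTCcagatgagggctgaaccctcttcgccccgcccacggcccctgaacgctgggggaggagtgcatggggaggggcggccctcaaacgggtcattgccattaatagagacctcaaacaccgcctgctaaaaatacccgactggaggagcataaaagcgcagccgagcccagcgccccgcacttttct
HSPA6 holds the core at 180 and 69 bases before the start, HSPA1A at 106 and HSPB1 at 182. Searched on both strands in windows of 300 bases (250 before the start and 50 after), the core was in 3 of the 7 heat shock list promoters, in 7 of 36 promoters in the table of DEGs that rose (19.4%), in 5 of 71 of DEGs that fell (7.04%), in 5.34% of the 524 tested genes with a promoter in the table and in 6.77% of all 35116 promoters. The same windows were also searched for an E2F site, given below, and for further motifs. In DEGs that rose the CCAAT box was in 52.8%, against 36.3% of tested genes, and the AP-1 site in 13.9%, against 7.63%. The cAMP response element core was in 5.56%, against 3.44%, and the cell cycle homology region in 11.1%, against 10.7%. A match is a run of letters and no measured binding.

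Genes of CHOP, GADD45 and related stress responses followed. DDIT3, the gene of CHOP, a transcription factor raised by stress in the endoplasmic reticulum, had 4033, 4106 and 3896 normalized counts in MS13-treated cells, against 551 and 559.7 in control cells (log2 fold change 2.85, SE 0.051, adjusted p = 6.9e-61). GADD45A and GADD45B encode small proteins that bind PCNA and p38-activating kinases and slow the cell cycle. GADD45A had 9539.9, 9640.3 and 9660.1 in MS13-treated cells, against 1007 and 991 in control cells (log2 fold change 3.27, SE 0.045), and GADD45B had 2053, 2223 and 2257 in MS13-treated cells, against 157 and 174 in control cells (log2 fold change 3.69, SE 0.067). GADD45G, the remaining member of the family, rose too but averaged under the limit in both groups, with 31.7 ± 4.83 normalized counts in MS13-treated cells (SD, n = 3) and 10.3 ± 0.932 in control cells (SD, n = 2), so no fold is given. DDIT4, an inhibitor of mTOR complex 1 that is raised by several stresses, had 142, 134 and 159 in MS13-treated cells, against 69.3 and 58.1 in control cells (log2 fold change 1.23, SE 0.13). NUPR1, a stress-induced nuclear protein gene, and NFE2L2, which encodes the oxidative stress regulator NRF2, rose by less than 2-fold, at 0.98 (SE 0.094) and 0.57 (SE 0.05) on the log2 scale. MAP3K5, the gene of the apoptosis signal-regulating kinase ASK1, went the other way, with 41.5, 23.1 and 42.7 in MS13-treated cells, against 62.7 and 68.2 in control cells (log2 fold change -0.90, SE 0.19). Of this list 7 rose and 4 fell of 12 tested (median 0.77), and with all 4 scalings 7 and 1 of these calls held, since CREB3L4, CREB5 and EIF4EBP1, at -0.48, -0.34 and -0.24, lost their falls with TMM.

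Immediate-early transcription factors were split. FOS, a subunit of the AP-1 factor, had 1086, 1131 and 1100.2 normalized counts in MS13-treated cells, against 111 and 123 in control cells (log2 fold change 3.22, SE 0.075, adjusted p = 1.6e-52), and its partner JUN had 819, 823 and 814 in MS13-treated cells, against 206 and 238 in control cells (log2 fold change 1.85, SE 0.074). FOSL1, which encodes the AP-1 subunit FRA1, had 1945, 2102 and 2215 in MS13-treated cells, against 4611 and 4536 in control cells (log2 fold change -1.13, SE 0.044), with all 3 MS13 samples below both controls, whereas FOS and JUN were above them. NR4A3, an orphan nuclear receptor gene, had 38.0, 58.9 and 54.4 in MS13-treated cells, against 19.8 and 18.8 in control cells, with the control mean under the limit, and the rise was at least 1.79-fold. ETS2, KLF4 and MYC rose by 0.88, 0.70 and 0.45 on the log2 scale (SE 0.046, 0.073 and 0.044), while NR4A1 did not pass the test at 0.01 (SE 0.17). Of these factors 6 rose and 2 fell of 9 tested (median 0.70), and all 6 rises and 1 of the falls held under every scaling.

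**Figure D2:**
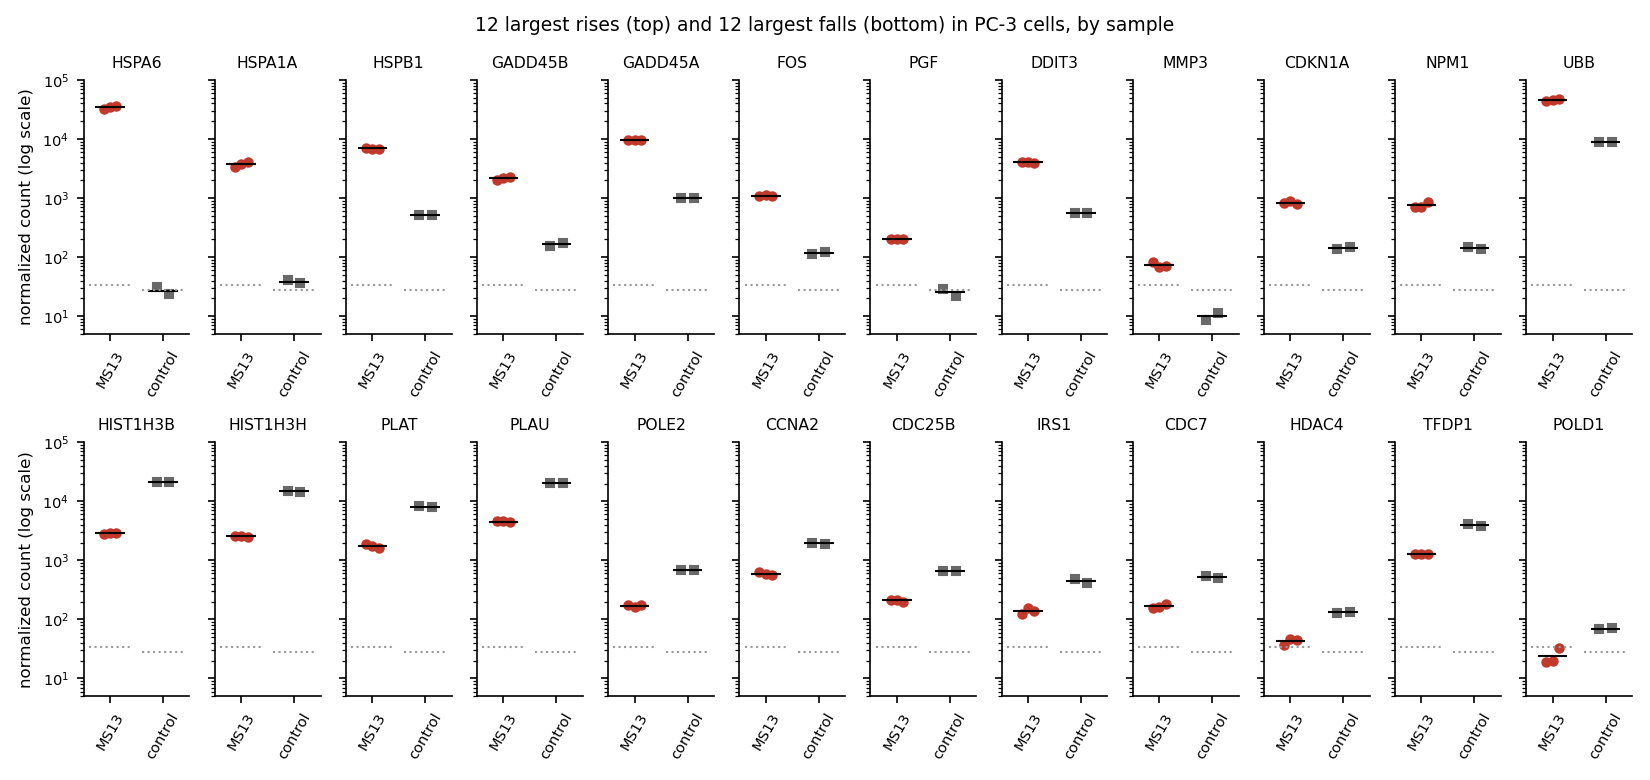
Normalized counts (log scale) of the 12 genes with the largest rises (upper row) and the 12 with the largest falls (lower row) among DEGs above a background limit. Circles are the 3 MS13-treated samples, squares the 2 control samples, short lines the means and dotted lines the background limits of each group. The 24 genes were chosen among those whose groups do not overlap. The MS13 samples of POLD1 and the controls of HSPA6, PGF and MMP3 lie under or close to the limits.

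Of the CDK inhibitor genes that of p21 rose most, and of the genes that drive the cell cycle more fell than rose, as over all genes tested. CDKN1A, the gene of p21, had 839, 884 and 803 normalized counts in MS13-treated cells, against 135 and 151 in control cells (log2 fold change 2.53, SE 0.076, adjusted p = 6.9e-45), and every MS13 sample lay far above both controls. The other CDK inhibitors moved less. CDKN1C (p57), CDKN1B (p27) and CDKN2C (p18) rose by 0.71, 0.49 and 0.27 on the log2 scale, and CDKN2A, which encodes p16 and ARF, fell to 61.7, 60.1 and 77.7 in MS13-treated cells, against 102 and 101 in control cells. CDKN2B and CDKN2D did not pass the test, at 0.02 (SE 0.081) and -0.03 (SE 0.12). Among G1 genes, CCND1, the gene of cyclin D1, had 2440.2, 2468 and 2628 in MS13-treated cells, against 5840.0 and 5954 in control cells (log2 fold change -1.23, SE 0.04). Its kinase gene CDK4 fell to 558, 555 and 542 in MS13-treated cells, against 925 and 952 in control cells, and CDK6, the alternative partner of D cyclins, rose to 215, 240.3 and 249.8 in MS13-treated cells, against 134 and 144 in control cells. CCNE1 and CCNE2, the E cyclins that start S phase, moved in opposite directions, at 0.47 (SE 0.08) and -0.57 (SE 0.061). In the G1 list 3 rose and 6 fell of 11 tested (median -0.23), beside 21.9% and 36.8% over all genes tested. With all 4 scalings 2 and 5 of these calls held.

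All 9 genes of RB, E2F and the SCF ubiquitin ligase changed, 7 of them down (median -1.05). TFDP1, which encodes the DP1 partner of the E2F factors, had 1296, 1277 and 1304 normalized counts in MS13-treated cells, against 4049 and 3834 in control cells (log2 fold change -1.61, SE 0.045, adjusted p = 4.7e-47). E2F1 had 230.2, 232 and 285 in MS13-treated cells, against 506 and 530.2 in control cells, and E2F5, one of the repressive E2Fs, had 341, 325 and 337 in MS13-treated cells, against 772 and 707 in control cells, both lower in all MS13 samples. RB1 itself fell as well, with 331, 349 and 309 in MS13-treated cells, against 677 and 686 in control cells (log2 fold change -1.05, SE 0.067), and so did SKP2, the SCF subunit that marks p27 for degradation, with 424, 367 and 400.0 in MS13-treated cells, against 936 and 896 in control cells (log2 fold change -1.20, SE 0.063). SKP1, a shared subunit of SCF, and FBXW7, the subunit that recognises cyclin E and MYC, rose by 0.59 and 0.77 on the log2 scale. The fall of RBX1, -0.25 (SE 0.043), lost its call with TMM, and the other 8 calls held under every scaling.

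DNA replication genes fell nearly as a group, with 14 down and 1 up of 16 tested, 12 of the 14 as DEGs, and a median of -1.16 that was -0.97 with TMM and -1.23 with the positive probes. All 15 calls held under the 4 scalings. POLE2, a subunit of the leading-strand DNA polymerase epsilon, had 172, 162 and 177 normalized counts in MS13-treated cells, against 684 and 683 in control cells (log2 fold change -2.01, SE 0.078, adjusted p = 1.2e-37). CDC7, the kinase that fires replication origins, had 154, 163 and 185 in MS13-treated cells, against 549.7 and 509 in control cells (log2 fold change -1.65, SE 0.083). POLD1, the catalytic subunit of polymerase delta, had 19.0, 19.6 and 32.4 in MS13-treated cells, against 68.2 and 71.3 in control cells, and since its MS13 mean lay under the limit the fall was at least 2.07-fold. Of the helicase that unwinds origins, MCM4 had 891, 856 and 950.1 in MS13-treated cells, against 2138 and 2161 in control cells, and MCM7 had 1529, 1460.4 and 1415 in MS13-treated cells, against 3549.9 and 3575 in control cells. RFC4, a subunit of the factor that loads the PCNA clamp, had 438, 475 and 457 in MS13-treated cells, against 1220.3 and 1274 in control cells (log2 fold change -1.45, SE 0.058). In each of these genes both controls lay above all 3 MS13 samples, which held for all 94 DEGs that fell. CDC6, which loads the helicase on origins, was the one that rose, to 1647, 1648 and 1658 in MS13-treated cells, against 1401 and 1288 in control cells (log2 fold change 0.31, SE 0.048).

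Promoters of 2 of these genes are shown because they hold an E2F octamer, one of TTTCCCGC, TTTGGCGC and TTTCGCGC on either strand, in capitals. They cover the same stretch around the start on the strand of the gene, from RefSeq GRCh38.p14, for POLE2 (chr14:49688205-49688414, minus strand) and MCM7 (chr7:100101388-100101597, minus strand).
POLE2: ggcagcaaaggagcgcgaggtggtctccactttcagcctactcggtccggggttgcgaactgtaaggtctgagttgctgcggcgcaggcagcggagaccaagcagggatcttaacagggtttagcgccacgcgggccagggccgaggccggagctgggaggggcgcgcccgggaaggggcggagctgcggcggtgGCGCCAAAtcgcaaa
MCM7: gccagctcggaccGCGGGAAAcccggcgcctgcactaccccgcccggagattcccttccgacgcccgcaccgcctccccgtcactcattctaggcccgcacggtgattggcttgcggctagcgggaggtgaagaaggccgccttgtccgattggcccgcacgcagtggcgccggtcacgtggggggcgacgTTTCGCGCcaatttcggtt
The match in POLE2 begins 5 bases before the start, and those in MCM7 begin 187 and 9 bases before it. In the windows of 300 bases an octamer was found in 7 of the 13 DNA replication genes with a promoter in the table (53.8%), in 11 of 71 promoters of DEGs that fell (15.5%), in 1 of 36 of DEGs that rose (2.78%), in 4.96% of tested genes and in 2.74% of all promoters. CDC6, which rose, is among those with a match.

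Of the histone H3 genes, the 2 replication-dependent members above the limit had the largest falls among the genes tested. HIST1H3B had 2845, 2902 and 2922 normalized counts in MS13-treated cells, against 20824 and 21208 in control cells (log2 fold change -2.86, SE 0.039, adjusted p = 1.1e-68), and HIST1H3H had 2622, 2584 and 2461 in MS13-treated cells, against 15074 and 14572 in control cells (log2 fold change -2.53, SE 0.043). The replication-dependent H3 genes are nearly identical, and counts from close copies of any H3 gene cannot be told apart here. HIST1H3B took 0.507% of panel counts in MS13-treated cells, against 3.52% in control cells. The replacement histone H3F3A, which is also made outside S phase, moved little, at -0.20 (SE 0.039), a fall that lost its call with TMM, and H3F3C did not pass the test at 0.06 (SE 0.04). HIST1H3G was under the limit in both groups of PC-3 cells, while DU 145 cells had 279 ± 20.1 normalized counts with MS13 and 2785 ± 25.6 in controls (SD, n = 3 each).

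In the list of G2 and mitosis genes 2 rose and 13 fell of 19 tested, 9 of the falls as DEGs (median -0.55). CCNA2 and CCNB1, the cyclins of S phase and mitosis, had 647, 578 and 567 normalized counts in MS13-treated cells, against 1979 and 1886 in control cells (CCNA2, log2 fold change -1.69, SE 0.052) and 1302, 1301 and 1296 in MS13-treated cells, against 3452 and 3599.7 in control cells (CCNB1, log2 fold change -1.44, SE 0.043). CDC25B, a phosphatase that switches on CDK1, had 211, 217 and 201 in MS13-treated cells, against 649.7 and 668 in control cells (log2 fold change -1.65, SE 0.072), and CDC25C had 129, 117 and 128 in MS13-treated cells, against 312 and 289 in control cells (log2 fold change -1.25, SE 0.10). PKMYT1, which encodes a kinase that holds CDK1 inactive, fell too, to 59.3, 55.5 and 60.8 in MS13-treated cells, against 164 and 148 in control cells, as did the spindle checkpoint kinase gene TTK, to 437, 427 and 404 in MS13-treated cells, against 1076 and 1081 in control cells. The groups did not overlap in any of these 6 genes, as in all 94 DEGs that fell and in 68.4% of all genes tested. SFN, the gene of stratifin, which keeps cyclin B1 in the cytoplasm, rose to 4349, 4416 and 4796 in MS13-treated cells, against 3272 and 3167 in control cells (log2 fold change 0.49, SE 0.041), and CDC14A rose by 0.70 on the log2 scale. The cohesin gene RAD21 and the kinase gene WEE1 did not pass the test, at -0.01 (SE 0.038) and -0.02 (SE 0.055), and TMM called both higher, at 0.18 and 0.17. Plotted with the 4 scalings, the members of these lists shift together. This follows from the method, since a scaling applies 1 factor to all genes of a sample, and is no result about these lists.

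**Figure D3:**
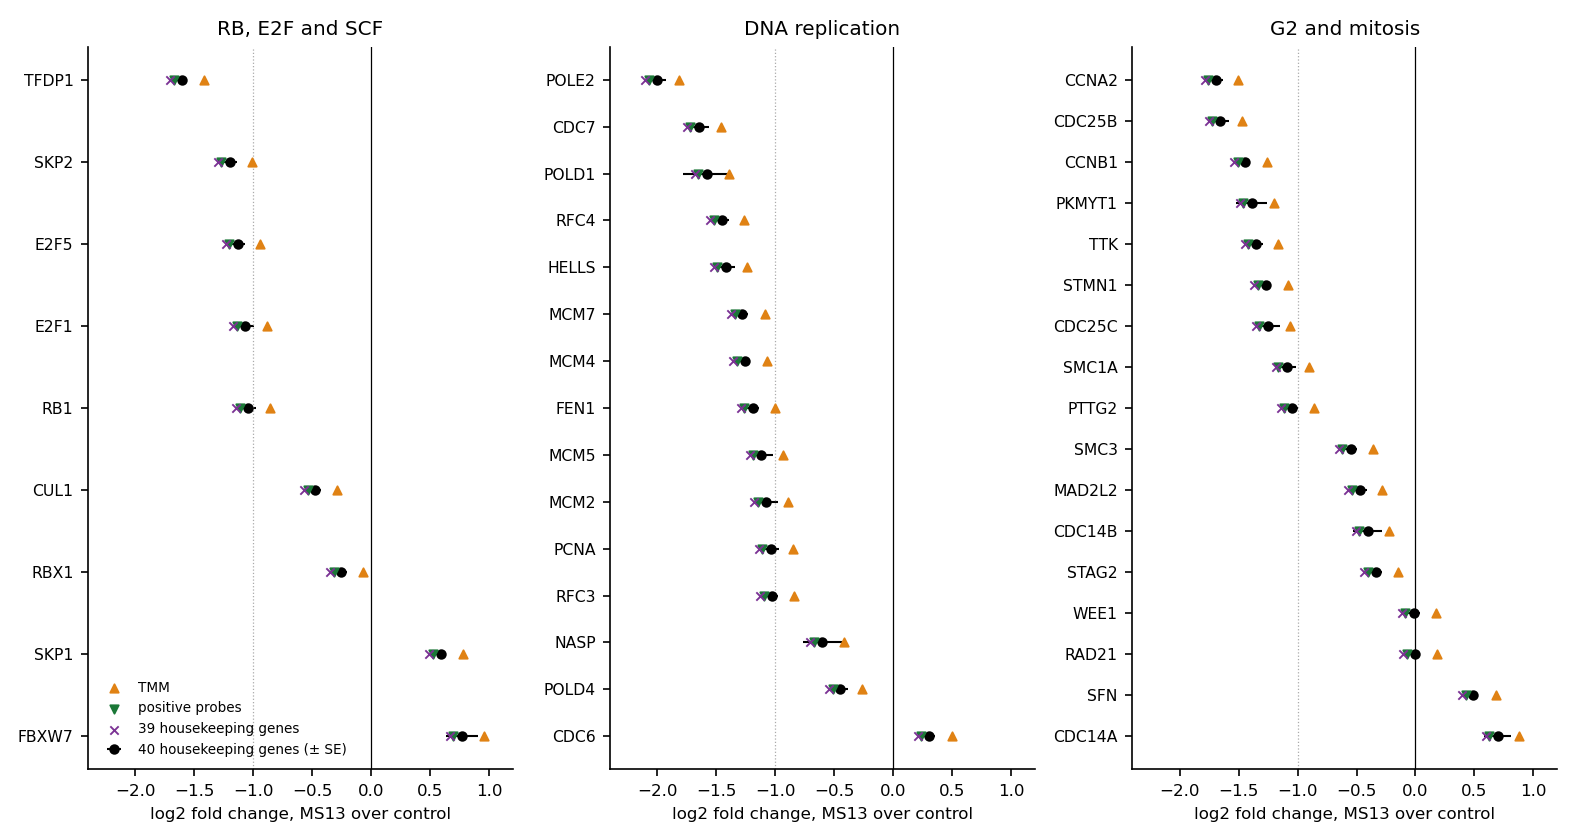
Log2 fold change, MS13-treated over control PC-3 cells, of the members above a background limit of 3 lists (RB, E2F and SCF, then DNA replication, then G2 and mitosis), every such member being shown whether named in the text or not. Black circles with bars are the values with 40 housekeeping genes ± SE, and the other symbols the same genes under TMM, the positive probes and 39 housekeeping genes. POLE2, TFDP1 and CCNA2 lie beyond a 2-fold fall under every scaling, while RAD21 and WEE1 cross 0 with TMM.

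Repair genes fell more often than they rose, beside 36.8% falls and 21.9% rises over all genes tested. Of 24 checkpoint and double-strand break genes 21 fell and 2 rose (median -0.92), and 1 and 20 of the rises and falls held with all 4 scalings. PRKDC, the catalytic subunit of the DNA-dependent protein kinase, had 687, 682 and 709 normalized counts in MS13-treated cells, against 2009 and 1988 in control cells (log2 fold change -1.53, SE 0.05, adjusted p = 1.3e-42). UBE2T, which attaches ubiquitin to the Fanconi anemia proteins, had 223, 206 and 211 in MS13-treated cells, against 649.7 and 623 in control cells (log2 fold change -1.57, SE 0.077), and CHEK1, the checkpoint kinase gene of S phase, had 589.9, 539.6 and 598 in MS13-treated cells, against 1159.9 and 1143 in control cells, a fall of just under 2-fold. NBN, part of the complex that senses broken ends, had 1214, 1196 and 1182 in MS13-treated cells, against 1995 and 1926 in control cells, a fall of less than 2-fold. LIG4 and XRCC4, which encode the ligase of end joining and its partner, rose instead, at 0.61 (SE 0.079) and 0.26 (SE 0.075), and the call for XRCC4 did not hold under every scaling. In the list of other repair pathways 1 rose and 8 fell of 14 tested (median -0.37), and 1 and 8 of these held under every scaling. There DDB2, a sensor of ultraviolet lesions, had 128, 114 and 114 in MS13-treated cells, against 325 and 345 in control cells (log2 fold change -1.51, SE 0.097), and MGMT, which removes alkyl groups from guanine, had 149.5, 169.8 and 166 in MS13-treated cells, against 329 and 364 in control cells (log2 fold change -1.12, SE 0.092). NTHL1, a base excision glycosylase gene, fell to 139, 168 and 150.2 in MS13-treated cells, against 368 and 345 in control cells, while POLB, the polymerase of base excision repair, rose to 437, 418 and 416 in MS13-treated cells, against 274 and 290.3 in control cells. The nucleotide excision genes ERCC2, ERCC6 and XPA did not pass the test, with log2 fold changes from -0.18 to 0.07.

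Of the genes of cell death tested 3 were DEGs, all of them in the list of caspases, endonuclease G and inhibitors of apoptosis. Over all genes tested 20.3% were DEGs, 21.9% rose and 36.8% fell. In the BCL2 family 1 rose and 4 fell of 7 tested and none was a DEG (median -0.57). BCL2L1, the gene of the survival protein BCL-XL, had 1346, 1345 and 1278 normalized counts in MS13-treated cells, against 2299 and 2249.5 in control cells (log2 fold change -0.78, SE 0.047), and the death-promoting members BAX and BAD had 494, 429 and 471 in MS13-treated cells, against 733 and 711 in control cells (BAX) and 614, 663 and 612 in MS13-treated cells, against 972 and 914 in control cells (BAD). Genes for survival and for death thus both fell, at -0.78, -0.63 and -0.57 on the log2 scale (SE 0.047, 0.064 and 0.058). BCL2 itself was near background, with 20.2, 27.7 and 27.2 in MS13-treated cells, against 50.6 and 31.1 in control cells, and its fall (log2 fold change -0.59, SE 0.25) lost its call with TMM. BNIP3, a hypoxia-induced member, rose to 4485, 4475 and 4511 in MS13-treated cells, against 3728 and 3628 in control cells. The initiator caspase genes CASP8 and CASP9 did not pass the test, at 0.14 (SE 0.067) and 0.02 (SE 0.093). ENDOG, a mitochondrial nuclease gene, fell to 153, 173 and 144 in MS13-treated cells, against 370.5 and 404 in control cells (log2 fold change -1.32, SE 0.089), CAPN2, a calpain gene, fell by 0.83 on the log2 scale, and BIRC3, the gene of an inhibitor of apoptosis, was near the limit in controls and under it after MS13, at least 1.06-fold lower. The TRAIL receptor genes TNFRSF10A and TNFRSF10B rose by 0.40 and 0.33, and FAS, another death receptor gene, and TNFSF10, the gene of TRAIL, fell, FAS by 0.67 on the log2 scale and TNFSF10 to under the limit, at least 1.10-fold. Of the 7 death receptor and ligand genes 2 rose and 2 fell, and of the 10 caspase and related genes 2 rose, 1 of them as a DEG, and 3 fell, 2 of them as DEGs.

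Feedback genes of the MAPK cascade fell more often than they rose, which was also so over all genes tested (36.8% fell and 21.9% rose). ERK signalling raises the dual-specificity phosphatases and the Sprouty genes, whose products damp the cascade again. DUSP4 had 2021, 2048 and 1834 normalized counts in MS13-treated cells, against 5273 and 5231 in control cells (log2 fold change -1.41, SE 0.042, adjusted p = 5.3e-45), and DUSP6, a phosphatase of ERK in the cytoplasm, had 919.8, 901 and 832 in MS13-treated cells, against 1618 and 1620.0 in control cells (log2 fold change -0.87, SE 0.05). SPRY1, SPRY2 and SPRY4 fell by 0.96, 0.44 and 0.83 on the log2 scale (SE 0.13, 0.083 and 0.085). RASA4, which encodes a RAS GTPase-activating protein, had 151, 139 and 139.8 in MS13-treated cells, against 318 and 296 in control cells (log2 fold change -1.09, SE 0.1), and PTPN11, the gene of the phosphatase SHP2, which passes growth factor signals on to RAS, had 2617, 2549.9 and 2415 in MS13-treated cells, against 4556 and 4450.2 in control cells (log2 fold change -0.83, SE 0.041). DUSP10, whose product prefers JNK and p38, went the other way, with 377, 386 and 365 in MS13-treated cells, against 148 and 154 in control cells (log2 fold change 1.31, SE 0.091), and DUSP5 rose by 0.63. Of this list, which holds PTPN11 beside the feedback inhibitors, 3 rose and 8 fell of 14 tested (median -0.63), and 2 and 7 of the rises and falls held with all 4 scalings. Among kinases, GTPases and exchange factors of the cascade 11 rose and 15 fell of 39 tested, with a median of 0.00. RRAS2, a RAS-related GTPase gene, had 1517, 1423 and 1345 in MS13-treated cells, against 703 and 639.7 in control cells (log2 fold change 1.11, SE 0.054), and MAP2K1, the gene of MEK1, had 2325, 2309.6 and 2303 in MS13-treated cells, against 1516 and 1532 in control cells (log2 fold change 0.60, SE 0.045) where MAP2K2, the gene of MEK2, had 773, 775 and 823 in MS13-treated cells, against 1210.4 and 1209.6 in control cells (log2 fold change -0.62, SE 0.052). The JNK genes parted in the same way, MAPK8 at 0.56 (SE 0.068) and MAPK9 at -0.82 (SE 0.059). STMN1, the gene of the microtubule regulator stathmin, and RIN1, a RAS effector gene, were among the DEGs that fell, at -1.27 (SE 0.047) and -1.44 (SE 0.081).

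In the NF-kB pathway CYLD was the one DEG. CYLD, a deubiquitinase that blocks the pathway, had 1009, 998 and 1015 normalized counts in MS13-treated cells, against 225 and 226 in control cells (log2 fold change 2.16, SE 0.067, adjusted p = 4.9e-44), with all 3 MS13 samples far above both controls. TNFAIP3, the gene of the ubiquitin-editing inhibitor A20, had 325, 315 and 324 in MS13-treated cells, against 169 and 185 in control cells (log2 fold change 0.84, SE 0.09), and NFKBIA, the gene of the inhibitor IκBα, had 2214, 2327 and 2244 in MS13-treated cells, against 1464 and 1478 in control cells (log2 fold change 0.62, SE 0.045). NFKBIZ, which encodes the nuclear IκBζ, rose by 0.88 on the log2 scale. NFKB1, the gene of the p105 and p50 subunits, fell to 80.7, 95.9 and 94.5 in MS13-treated cells, against 181 and 144 in control cells (log2 fold change -0.80, SE 0.12), IKBKB and MYD88 fell by 0.53 and 0.47, and RELA did not pass the test at -0.06 (SE 0.069). The counts for the whole list were 6 up and 4 down of 17 tested, with a median of 0.07. The shares over all genes tested were 21.9% up and 36.8% down. IKBKG, at 0.17 (SE 0.073), lost its call under other scalings.

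Cytokine genes changed in both directions, as did all genes tested, of which 21.9% rose and 36.8% fell. IL8, a neutrophil chemokine, had 13162, 13317 and 13054 normalized counts in MS13-treated cells, against 25881 and 25252 in control cells (log2 fold change -0.96, SE 0.035, adjusted p = 5.3e-39). IL1B, another inflammatory cytokine, had 127, 142 and 128 in MS13-treated cells, against 242 and 295 in control cells (log2 fold change -1.06, SE 0.10), and IL11 and LIF, which both signal through the receptor subunit gp130, went opposite ways. IL11 had 317, 307 and 295 in MS13-treated cells, against 95.6 and 75.4 in control cells (log2 fold change 1.90, SE 0.11), and LIF had 319, 252 and 325 in MS13-treated cells, against 839 and 856 in control cells (log2 fold change -1.51, SE 0.07). IL6, a further gp130 ligand, had 94.9, 99.4 and 75.1 in MS13-treated cells, against 94.5 and 73.3 in control cells, its groups overlapped and it did not pass the test (log2 fold change 0.17, SE 0.15). Of the cytokines 4 rose and 4 fell of 17 tested (median 0.19). Among their receptors IL1RAP, the shared subunit for interleukin 1 and its relatives, had 279, 258 and 251 in MS13-treated cells, against 115 and 108 in control cells (log2 fold change 1.25, SE 0.10), IL6R rose by 0.79 and LIFR by 0.53, and IL20RA fell to 29.7, 32.4 and 47.9 in MS13-treated cells, against 78.1 and 70.3 in control cells, and that list held 4 rises and 3 falls among 14 tested, of which 4 and 1 held under all 4 scalings. Downstream, PIM1, a kinase gene that STAT factors raise, had 1027, 1044 and 1061 in MS13-treated cells, against 405 and 460.4 in control cells (log2 fold change 1.25, SE 0.059), and SOCS3, a feedback inhibitor of JAK kinases, had 249, 248 and 239 in MS13-treated cells, against 144 and 154 in control cells (log2 fold change 0.71, SE 0.1). SOCS2 fell instead, by 0.60 on the log2 scale, as did JAK2 (-0.53), and in the JAK, STAT and SOCS list 5 rose and 5 fell of 12 tested (median -0.21), of which 3 and 3 held under all 4 scalings.

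Growth factor ligands held more rises than falls, whereas over all genes tested falls were the more frequent. PGF, the gene of placental growth factor, had 201, 204 and 205 normalized counts in MS13-treated cells, against 28.6 and 22.4 in control cells, and since its control mean lay under the limit the rise was at least 7.23-fold (log2 fold change 3.05, SE 0.15, adjusted p = 2.1e-30). KITLG, the gene of stem cell factor, had 1259, 1262 and 1222 in MS13-treated cells, against 657 and 653 in control cells (log2 fold change 0.93, SE 0.054), and VEGFA and BDNF rose by 0.39 and 0.41 (SE 0.051 and 0.095). IGFBP3, which binds insulin-like growth factors outside the cell, fell to 532, 536 and 506 in MS13-treated cells, against 893 and 987 in control cells (log2 fold change -0.85, SE 0.058). Of the ligand list 12 rose and 5 fell of 29 tested (median 0.41) and 11 and 3 of these held under all 4 scalings, with 21 of the tested genes above a background limit and PGF as the one DEG. Of the receptor tyrosine kinases EGFR had 1005, 1021 and 1030.3 in MS13-treated cells, against 1740.3 and 1633 in control cells (log2 fold change -0.72, SE 0.048), ERBB2 had 230.2, 203 and 198 in MS13-treated cells, against 439.8 and 453 in control cells (log2 fold change -1.09, SE 0.083), and EPHA2, an ephrin receptor gene, had 1164, 1236 and 1148 in MS13-treated cells, against 2438 and 2424 in control cells (log2 fold change -1.04, SE 0.045). MET, the receptor of hepatocyte growth factor, fell by 0.43 on the log2 scale and IGF1R, the receptor of insulin-like growth factor, rose by 0.38. IRS1, the adaptor of the insulin receptors, had 126, 154 and 141 in MS13-treated cells, against 485 and 414 in control cells (log2 fold change -1.65, SE 0.094), far lower in every MS13 sample. In the receptor list 2 rose and 5 fell of 17 tested (median -0.05), smaller shares than over all genes tested (21.9% and 36.8%), and these 7 calls held under all 4 scalings.

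Of the PI3K, AKT and mTOR genes 3 were DEGs that rose, PIK3R3, DDIT4 and SGK2, the last of them under the background limits, and AKT1 was the one DEG that fell. AKT1 had 1195, 1215 and 1192 normalized counts in MS13-treated cells, against 2866 and 2840.3 in control cells (log2 fold change -1.25, SE 0.044, adjusted p = 2.1e-40), and AKT2 fell by 0.55 on the log2 scale. TSC1, part of the complex that restrains mTOR, had 287, 282 and 291 in MS13-treated cells, against 158 and 159.9 in control cells (log2 fold change 0.85, SE 0.092), and FOXO4, the gene of a transcription factor that AKT inactivates, had 198, 178 and 225 in MS13-treated cells, against 111 and 94.7 in control cells (log2 fold change 0.99, SE 0.11). The regulatory subunits of PI3K differed, with PIK3R3 at 832, 760.2 and 707 in MS13-treated cells, against 377 and 365 in control cells and PIK3R2 at 115, 135 and 133 in MS13-treated cells, against 235 and 251 in control cells. The catalytic subunit PIK3CA did not pass the test, at 0.09 (SE 0.059), and MTOR fell by 0.40. Of this list 5 rose and 8 fell of 21 tested (median -0.09, the same as over all genes), and 5 and 7 held under every scaling. PPP2CB, a catalytic subunit of the phosphatase PP2A, had 3587, 3536 and 3422 in MS13-treated cells, against 1269.8 and 1260.5 in control cells (log2 fold change 1.48, SE 0.045), and PPP3CB, a catalytic subunit of calcineurin, had 210.1, 210.3 and 243 in MS13-treated cells, against 531 and 489.9 in control cells (log2 fold change -1.20, SE 0.081), and in their list 1 rose and 4 fell of 9 tested, of which 1 and 2 held under all 4 scalings. Of the protein kinase A, protein kinase C and phospholipase genes 3 rose and 10 fell of 29 tested (median -0.12). Over all genes tested the shares were 21.9% and 36.8%. Among the falls were PRKCA, the gene of protein kinase Cα, at 58.2, 65.9 and 69.9 in MS13-treated cells, against 143 and 137 in control cells, and PRKACA, the main catalytic subunit of protein kinase A, at 2892, 2742 and 2643 in MS13-treated cells, against 4003 and 4181 in control cells.

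Protease genes changed both ways, and in the lists of adhesion genes falls outnumbered rises, as they did over all genes tested (36.8% and 21.9%). PLAU, the gene of the urokinase plasminogen activator, had 4582, 4589 and 4424 normalized counts in MS13-treated cells, against 20049.6 and 20071 in control cells (log2 fold change -2.15, SE 0.037, adjusted p = 2.2e-61), and it took 0.795% of panel counts in MS13-treated cells, against 3.36% in control cells. PLAT, the tissue-type activator, had 1863, 1723 and 1622 in MS13-treated cells, against 8259.7 and 7876 in control cells (log2 fold change -2.21, SE 0.043), and in both genes the groups lay far apart. MMP3, a matrix metalloproteinase gene, had 81.9, 69.3 and 69.9 in MS13-treated cells, against 8.80 and 11.2 in control cells, with the control mean under the limit, a rise of at least 2.62-fold. Integrins had no rise and 6 falls among 11 tested (median -0.42), which held under all 4 scalings. ITGA6 and ITGA3, the α subunits of laminin receptors, had 1079, 1091 and 1049.8 in MS13-treated cells, against 3048 and 3119.9 in control cells (ITGA6, log2 fold change -1.52, SE 0.045) and 4057, 3918 and 3926 in MS13-treated cells, against 9770.3 and 9867 in control cells (ITGA3, log2 fold change -1.31, SE 0.037). ITGB4, which pairs with ITGA6, fell by 0.88 on the log2 scale, and ITGA2, a collagen receptor subunit, by 0.74. Of laminins and other adhesive glycoproteins 1 rose and 6 fell of 15 tested: LAMA3 had 647, 603 and 658 in MS13-treated cells, against 1485 and 1499.9 in control cells (log2 fold change -1.23, SE 0.054), LAMA5 fell by 1.33 on the log2 scale, while LAMB3 rose by 0.28 and FN1, the fibronectin gene, did not pass the test at 0.06 (SE 0.045). Of the collagens 0 rose and 4 fell of 12 tested, COL4A5 at 246, 222 and 268 in MS13-treated cells, against 657 and 664 in control cells and COL5A2 at 339, 305 and 377 in MS13-treated cells, against 928 and 896 in control cells among them. FLNC, which encodes the actin crosslinker filamin C, rose to 4054, 4145 and 4213 in MS13-treated cells, against 1049.9 and 1055 in control cells (log2 fold change 1.97, SE 0.045), whereas its relative FLNA fell to 3901, 3874 and 3980.3 in MS13-treated cells, against 6436 and 6369.7 in control cells (log2 fold change -0.71, SE 0.038). The GTPase gene RAC2 had 224, 228 and 201 in MS13-treated cells, against 449.7 and 436 in control cells (log2 fold change -1.02, SE 0.082), and among RAC and other actin-linked genes 1 rose and 6 fell of 10 tested (median -0.42). CDH1, the E-cadherin gene, did not pass the test, at 0.05 (SE 0.052).

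TGF-beta signalling genes fell more often than they rose, as did all genes tested (36.8% fell and 21.9% rose). LTBP1, which tethers latent TGF-beta to the matrix, had 831, 903 and 945 normalized counts in MS13-treated cells, against 2694 and 2590.2 in control cells (log2 fold change -1.56, SE 0.047, adjusted p = 1.1e-44). SMAD3 and SMAD2, the factors that the receptor phosphorylates, had 650.4, 626 and 572 in MS13-treated cells, against 1558 and 1613 in control cells (SMAD3, log2 fold change -1.36, SE 0.054) and 299, 279.6 and 281 in MS13-treated cells, against 558 and 538 in control cells (SMAD2, log2 fold change -0.93, SE 0.074), and the receptor gene TGFBR2 fell by 0.80 on the log2 scale. BAMBI, a decoy receptor without kinase activity, had 186, 164 and 164 in MS13-treated cells, against 47.3 and 53.0 in control cells (log2 fold change 1.75, SE 0.14), and SMAD4, the common partner, did not pass the test at 0.03 (SE 0.073). In this list 1 rose and 6 fell of 12 tested, all 7 under every scaling (median -0.26). INHBB and INHBA, the β subunits of activins, had 1117, 996 and 1246 in MS13-treated cells, against 3142 and 3159 in control cells (INHBB, log2 fold change -1.50, SE 0.048) and 463, 445 and 507 in MS13-treated cells, against 788 and 762 in control cells (INHBA, log2 fold change -0.71, SE 0.063), and FST, the gene of follistatin, which binds activins, had 4672, 4665 and 4570.5 in MS13-treated cells, against 9634 and 9825 in control cells (log2 fold change -1.07, SE 0.037). Ligand subunits and their antagonist were thus lower together in every MS13 sample, and 68.4% of all genes tested had groups without overlap. Of the BMP genes BMP4 and ID2 rose by 0.60 and 0.83, and NOG, the BMP antagonist noggin, fell to 94.9, 78.6 and 82.8 in MS13-treated cells, against 186 and 192 in control cells (log2 fold change -1.15, SE 0.12), and that list held 3 rises and 2 falls among 11 tested, of which 3 and 1 held under all 4 scalings.

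Of the Wnt ligands, receptors and antagonists 2 rose and 5 fell of 28 tested (median 0.05), and 12 of them were above a background limit. For comparison with this and the lists that follow, 21.9% of all genes tested rose and 36.8% fell. FZD7 and FZD8, Wnt receptor genes, had 89.0, 121 and 114 normalized counts in MS13-treated cells, against 49.5 and 47.4 in control cells (FZD7, log2 fold change 1.17, SE 0.15) and 265, 229 and 249.8 in MS13-treated cells, against 602 and 630.0 in control cells (FZD8, log2 fold change -1.32, SE 0.078), so the 2 receptor DEGs moved apart. DKK1, a secreted Wnt antagonist gene, had 13136, 13199 and 12352 in MS13-treated cells, against 12598 and 12489 in control cells, with overlapping groups (log2 fold change 0.04, SE 0.037). In the list of β-catenin complex and target genes 2 rose and 5 fell of 16 tested, and 1 and 4 of these held under all 4 scalings. TCF3 was counted there as a fall, though it encodes the E2A transcription factors and no part of the β-catenin complex. TCF3 had 157, 163 and 139 in MS13-treated cells, against 436 and 455 in control cells (log2 fold change -1.55, SE 0.086). CTNNB1, the β-catenin gene itself, moved by 0.10 (SE 0.039). Of the Notch genes 4 rose and 10 fell of 21 tested (median -0.34). The ligand gene JAG2 had 252, 213 and 179 in MS13-treated cells, against 567 and 542 in control cells (log2 fold change -1.36, SE 0.079), the receptor gene NOTCH3 had 119.9, 113 and 91.9 in MS13-treated cells, against 221 and 249 in control cells (log2 fold change -1.13, SE 0.11), and the target gene HES1 fell by 0.87 on the log2 scale. The receptor gene NOTCH1 rose to 108, 102 and 126 in MS13-treated cells, against 70.4 and 57.0 in control cells, and the ligand gene DLL1 rose to 57.0, 56.6 and 54.4 in MS13-treated cells, against 29.7 and 31.6 in control cells. Among the Hedgehog genes GLI3 was the one that changed, with 126, 125 and 118 in MS13-treated cells, against 232 and 263 in control cells (log2 fold change -1.03, SE 0.10).

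Chromatin genes changed in both directions, mostly by less than 2-fold. Over all genes tested 21.9% rose, 36.8% fell and 6.58% were DEGs that rose. Of 34 chromatin genes tested 11 rose and 17 fell (median -0.20), none of the rises reached 2-fold, and 11 and 13 of the rises and falls held under all 4 scalings. Subunits of the SWI/SNF remodelling complex were among those that fell: PBRM1 had 348, 358 and 322 normalized counts in MS13-treated cells, against 778 and 841 in control cells (log2 fold change -1.25, SE 0.066, adjusted p = 3.2e-29), SMARCA4, its ATPase, had 1249.8, 1294 and 1341 in MS13-treated cells, against 2404 and 2343 in control cells (log2 fold change -0.87, SE 0.045), and SMARCB1 and ARID1B fell by 0.96 and 0.96 on the log2 scale. DNMT1, the enzyme that copies DNA methylation after replication, had 704, 682 and 715 in MS13-treated cells, against 1662 and 1752 in control cells (log2 fold change -1.29, SE 0.052), and IDH2, a mitochondrial dehydrogenase gene, had 417, 444 and 469 in MS13-treated cells, against 958 and 953 in control cells (log2 fold change -1.11, SE 0.061). The histone demethylase genes KDM5C and KDM6A rose by 0.75 and 0.44, the methyltransferase genes KMT2C and KMT2D by 0.38 and 0.37, and EP300, an acetyltransferase gene, by 0.48. HDAC4 had 36.8, 46.2 and 44.0 in MS13-treated cells, against 131 and 132 in control cells (log2 fold change -1.63, SE 0.15), and of the deacetylases 2 rose and 4 fell of 8 tested, HDAC5 and SIRT4 being the rises. NPM1, which encodes the nucleolar protein nucleophosmin, had 712, 711 and 844 in MS13-treated cells, against 149.5 and 137 in control cells (log2 fold change 2.41, SE 0.081). The architectural genes HMGA1 and HMGA2 fell, HMGA2 to 189, 169 and 193 in MS13-treated cells, against 554 and 535 in control cells (log2 fold change -1.57, SE 0.081), and the splicing factor genes SF3B1, U2AF1 and SRSF2 rose by 0.59, 0.31 and 0.27. Of the lineage transcription factors 7 rose and 6 fell of 31 tested (median 0.19), ETV1 and ETV4, ETS factors of prostate and other cancers, among the falls at -1.25 (SE 0.058) and -1.10 (SE 0.074) and HOXA9 among the rises at 0.42 (SE 0.059).

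**Figure D4:**
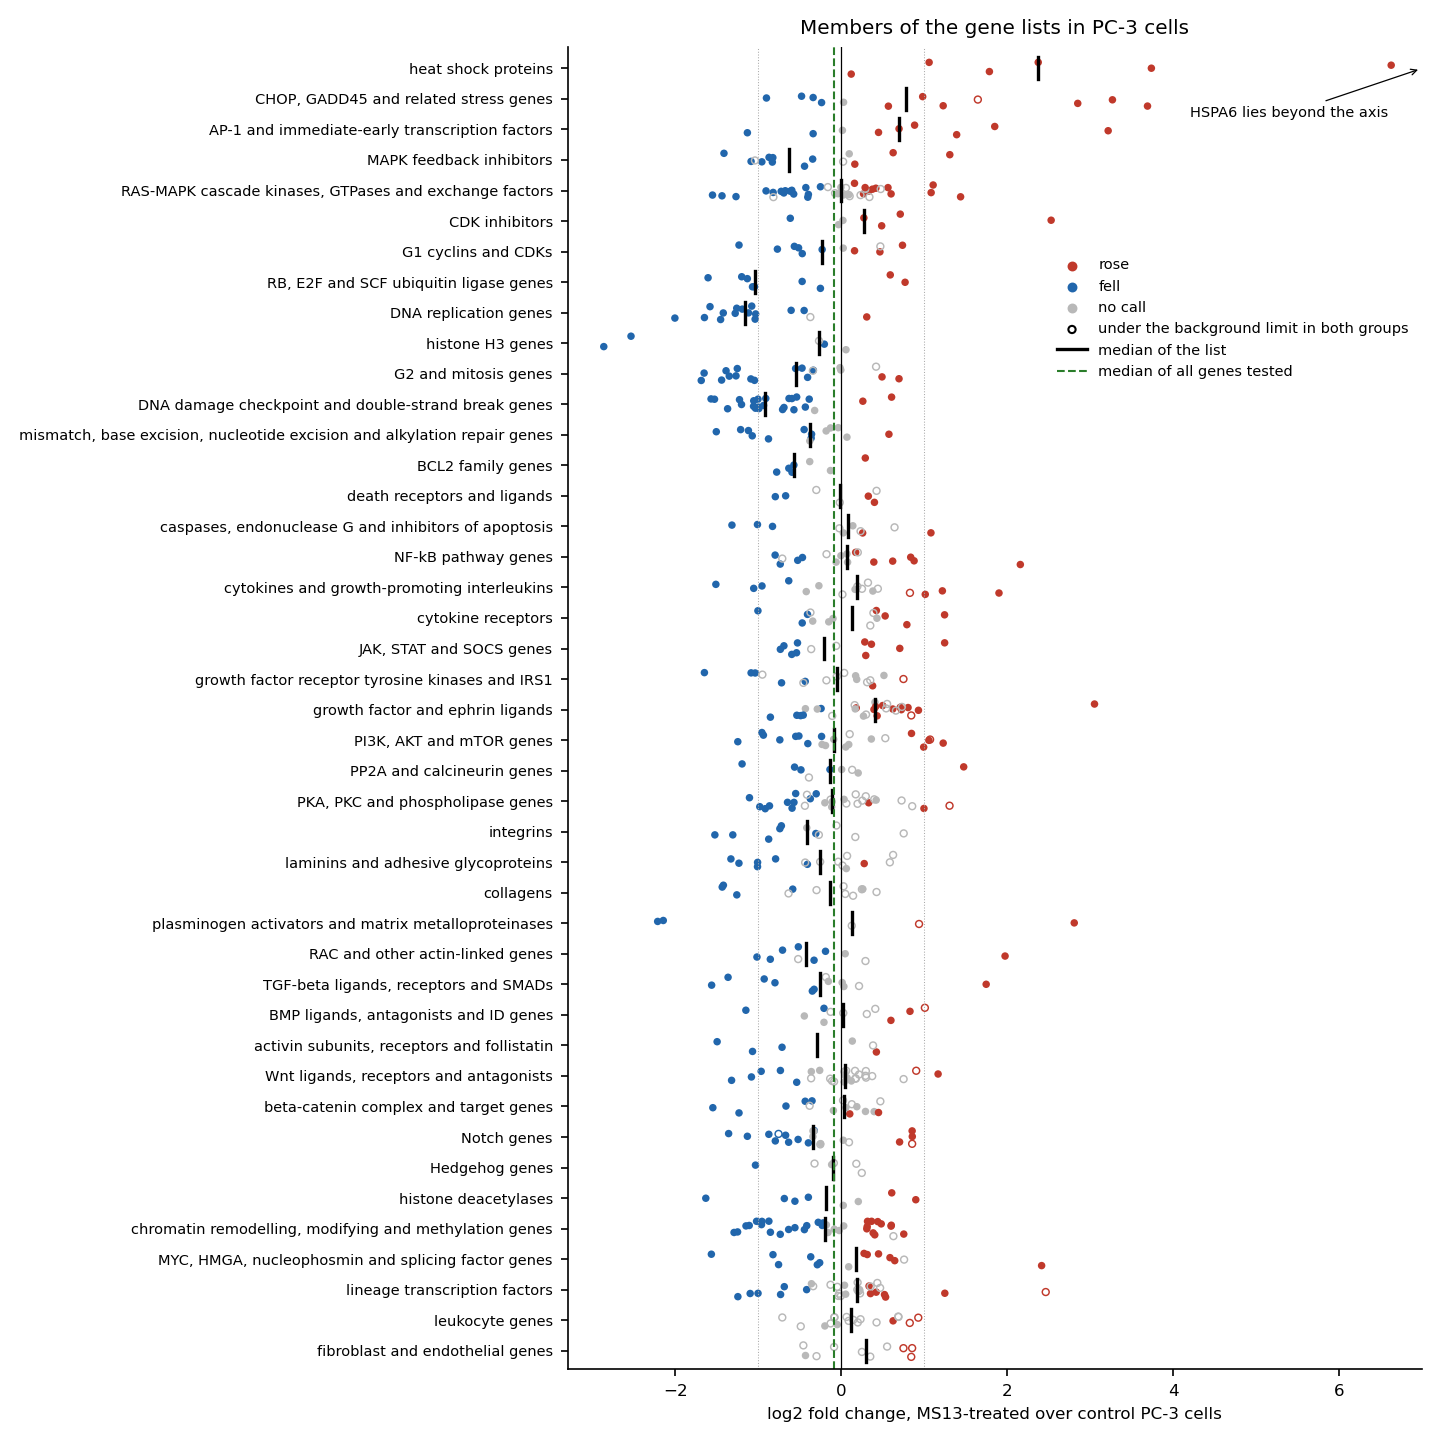
Log2 fold change (MS13-treated over control PC-3 cells) of every tested member of each gene list, coloured by whether it rose, fell or did not pass edgeR's test, with open circles for genes under both background limits, a bar at the median of the list and HSPA6 (10.38) beyond the axis. The dashed line is the median of all 684 genes tested, -0.09. The list of heat shock proteins, which includes the ubiquitin genes UBB and RPS27A, has the highest median, 2.37, the value of UBB. DNA replication genes have one of -1.16 with 14 falls of 16.

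The 25 genes that the study picked from these samples were all DEGs here, 7 up and 18 down. This is no independent evidence, since they were chosen on the same samples. All 25 kept their call and direction under the 4 scalings. HSP90B1 and PIK3R3 did not stay at 2-fold in every alternative setting, with lowest log2 fold changes of 0.96 and 0.96. Markers of other cells had little signal. Of 18 leukocyte genes tested 3 lay above a limit and 3 rose, with summed levels of 529 to 593 normalized counts in MS13-treated and 465 to 517 in control samples. Of 10 fibroblast and endothelial genes 1 lay above a limit and 3 rose, with sums of 198 to 224 in MS13-treated and 177 to 191 in control samples, and defining markers such as CD14, PDGFRB and COL1A1 were under the limits in both groups. In a bulk sample fewer cells and less RNA per cell cannot be told apart.

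Set against the response of DU 145 cells in the same fit, the effect of MS13 differed between the lines in 342 genes (50% of those tested). The response lay higher in PC-3 cells in 219 (32%) and lower in 123 (18%), and 217 (31.7%) kept their call and direction under the 4 scalings. The split itself turned with the scaling, for TMM gave 129 higher and 190 lower. Of the 139 DEGs of PC-3 cells, 87 had such a difference. The 16 genes below had the largest interactions among genes above the limit in at least 1 group of PC-3 cells, and all held under the 4 scalings, their values being normalized counts or log2 fold changes as stated.

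The 8 genes whose response lay highest in PC-3 cells came from several pathways. For GADD45B, PC-3 cells had 2053, 2223 and 2257 with MS13, against 157 and 174 in controls, while DU 145 cells had 1557, 1552 and 1473 with MS13, against 531, 590.4 and 606 in controls (interaction 2.29, SE 0.09, adjusted p = 2.2e-36), so it rose in both lines and more in PC-3 cells. For NFKBIA, PC-3 cells had 2214, 2327 and 2244 with MS13, against 1464 and 1478 in controls, while DU 145 cells had 1523, 1521 and 1427 with MS13, against 3572, 3430.1 and 3351 in controls (interaction 1.83, SE 0.06, adjusted p = 1.1e-41), a rise in PC-3 cells and a fall in DU 145 cells. For IL6, PC-3 cells had 94.9, 99.4 and 75.1 with MS13, against 94.5 and 73.3 in controls, while DU 145 cells had 33.5, 35.4 and 48.9 with MS13, against 179, 191 and 192 in controls (interaction 2.41, SE 0.20, adjusted p = 4.7e-18), where PC-3 groups overlapped and DU 145 groups did not. ID1, an inhibitor of differentiation that BMPs raise, had a log2 fold change of -0.21 in PC-3 and -2.28 in DU 145 cells (interaction 2.07, SE 0.055, adjusted p = 3.3e-47). BDNF, a neurotrophin gene, had a log2 fold change of 0.41 in PC-3 and -1.67 in DU 145 cells, and NR4A3, whose rise in PC-3 cells is known only as at least 1.79-fold, had a log2 fold change of -0.41 in DU 145 cells. NUPR1 had 0.98 in PC-3 and -0.82 in DU 145 cells, where its MS13 mean was near the limit of 20.2, and PPP2R2C, a regulatory subunit gene of PP2A, had -0.56 in PC-3 cells, where its MS13 mean lay under the limit and its control mean just above it, and -2.39 in DU 145 cells.

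The 8 genes whose response lay lowest in PC-3 cells included feedback inhibitors and secreted factors. For SPRY4, PC-3 cells had 208, 204 and 199 with MS13, against 388 and 346 in controls, while DU 145 cells had 179, 166 and 172 with MS13, against 26.9, 27.4 and 20.7 in controls (interaction -3.61, SE 0.17, adjusted p = 4.2e-32). For DUSP6, PC-3 cells had 919.8, 901 and 832 with MS13, against 1618 and 1620.0 in controls, while DU 145 cells had 544, 527 and 508 with MS13, against 209.5, 220.5 and 195 in controls (interaction -2.21, SE 0.085, adjusted p = 5.5e-37). Both ERK feedback genes thus fell in PC-3 cells and rose in DU 145 cells, and SOCS1, a JAK feedback inhibitor, stood at 0.36 in PC-3 cells, where its groups overlapped, and 3.23 in DU 145 cells on the log2 scale (interaction -2.86, SE 0.21, adjusted p = 6.0e-21). The DU 145 controls of SOCS1 had 29.0, 27.4 and 26.6 normalized counts, close to the limit of 27.1. For PLAT, PC-3 cells had 1863, 1723 and 1622 with MS13, against 8259.7 and 7876 in controls, while DU 145 cells had 29.8, 39.9 and 35.0 with MS13, against 24.7, 40.7 and 33.4 in controls (interaction -2.27, SE 0.21, adjusted p = 1.4e-15), a fall in PC-3 cells beside levels close to the limit in both groups of DU 145 cells. For JAG1, a Notch ligand gene, PC-3 cells had 595, 616 and 629 with MS13, against 882 and 878 in controls, while DU 145 cells had 94.7, 109 and 96.3 with MS13, against 23.6, 32.2 and 32.5 in controls (interaction -2.26, SE 0.16, adjusted p = 4.9e-21). INHBB, FST and PTPRR, a phosphatase gene of the MAPK family, had interactions of -3.89, -2.39 and -3.29, but their DU 145 controls averaged 6.01, 10.7 and 9.48 normalized counts, under the limit of 27.1, as did those of SPRY4, so these fitted sizes are no bounds. Of the 7 heat shock list genes 6 rose in DU 145 cells too and RPS27A fell there, at -0.60 on the log2 scale, with HSPA6 at 10.38 in PC-3 and 9.92 in DU 145 cells and HSPA1A at 6.63 in PC-3 and 5.65 in DU 145 cells. CDKN1A stood at 2.53 in PC-3 and 2.63 in DU 145 cells (interaction -0.10, SE 0.10, adjusted p = 0.43), and POLE2 at -2.01 in PC-3 and -1.53 in DU 145 cells (interaction -0.48, SE 0.099, adjusted p = 3.1e-05).

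**Figure D5:**
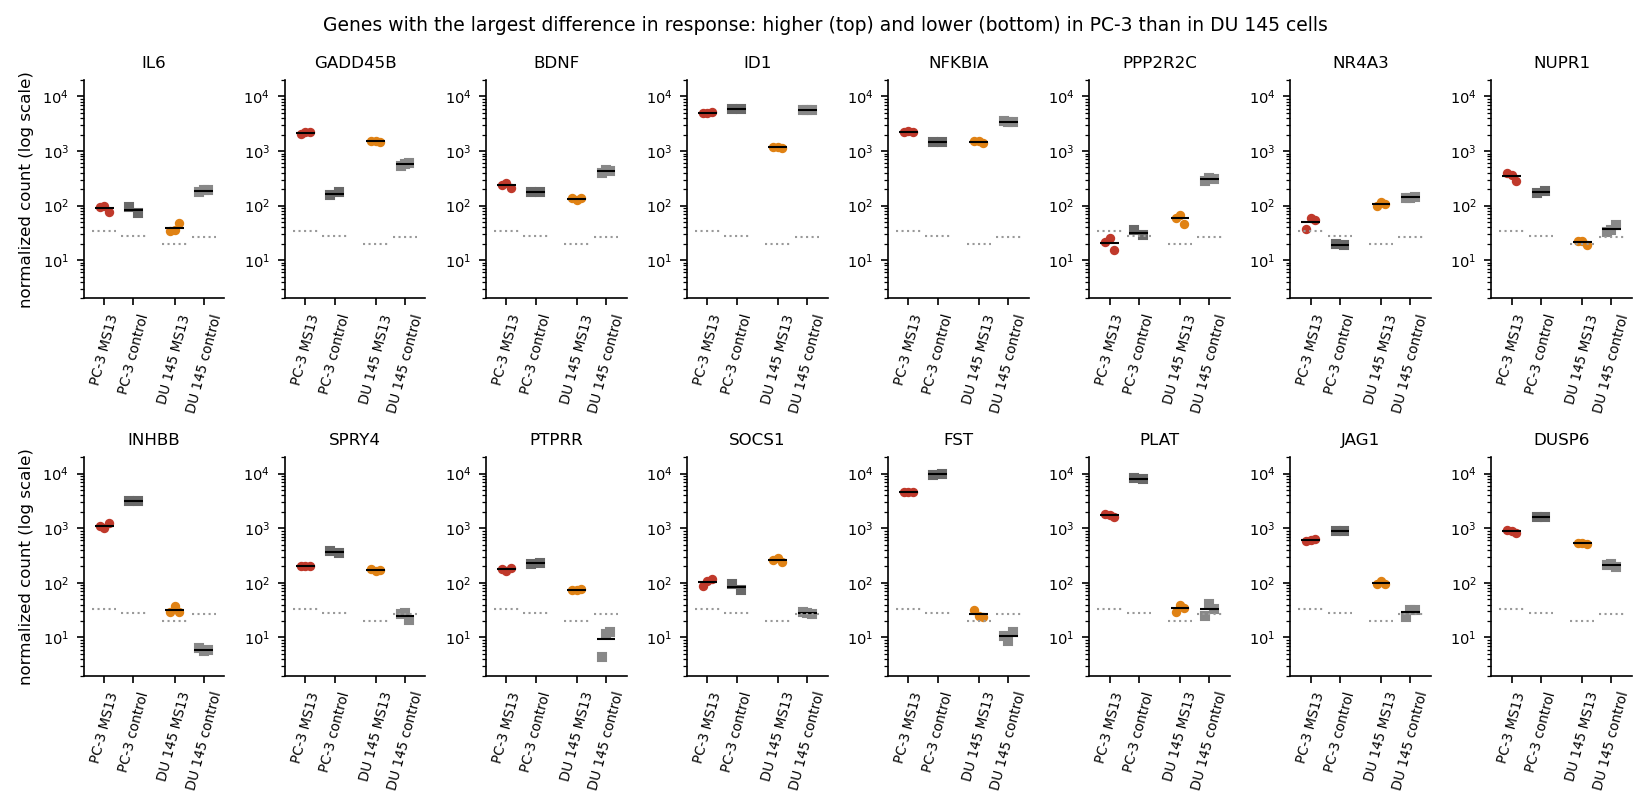
Normalized counts (log scale) in each sample for the 16 genes with the largest differences in response between the lines, 8 higher and 8 lower in PC-3 cells. In each panel PC-3 cells stand left of DU 145 cells and, within a line, MS13-treated samples (circles) left of controls (squares), with dotted lines at the background limits. GADD45B rises in both lines and further in PC-3 cells, SPRY4 and DUSP6 fall in PC-3 and rise in DU 145 cells, and the DU 145 controls of INHBB and PTPRR lie under the limit.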

How the data were processed

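Total RNA from 12 samples in 4 groups (DU 145 and PC-3 cells, each with 16 µM MS13 or control for 24 h, 3 samples per group) was counted on the nCounter PanCancer Pathway Panel. The values used are the raw probe counts that the authors deposited for each sample, as whole numbers with no normalization, and no sequencing or alignment is involved. Normalized counts were raw counts divided by the geometric mean of the 40 housekeeping genes and brought to the average of the samples. Genes with a mean of at least 10 counts were tested with edgeR 4.0.16 (R 4.3.3, limma 3.58.1) by the quasi-likelihood test in 1 fit over all groups, with Benjamini-Hochberg adjustment over the 684 genes, a threshold of 0.05 and, for DEGs, a fold change of 2. The interaction is the log2 response of PC-3 cells minus that of DU 145 cells. Where a group mean lay under its background limit (negative probe mean plus 2 SD), the fold is given as at least the ratio to that limit. PC-3 control replicates 2 and 3 were summed, which leaves 11 samples.

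On counts simulated for this comparison with 689 genes, the test recovered 69.1% of genes changed 1.5-fold, 93.7% of those changed 2.5-fold and 98.4% of those changed 4-fold, and called 0.81% of unchanged genes. The simulation gave all genes and samples the same spread beyond counting noise. It left the housekeeping genes unchanged and balanced rises with falls, so these shares do not include errors of scaling. The alternatives were TMM, positive probe, 10 most stable and 39 housekeeping gene scaling (the last added after the data were seen), a minimum of 50 counts or none, subtraction of the negative probes, a floor at the limit, DESeq2 1.42.0, PC-3 samples alone, 12 separate samples, a replicate block and leaving out each replicate. Genes are named in the text if they were among the 12 largest rises or falls of DEGs above a limit with groups that did not overlap, the 4 smallest p or 2 smallest changes of a list, members of a list of at most 15 genes, the 8 largest interactions each way or the study's 25 genes, and some genes that met this rule are not reported here. AKT2, ARID1B, CC2D1B, CDC14A, CTNNB1, DLL1, EP300, FOXO4, IGF1R, IKBKB, IKBKG, KDM5C, KDM6A, KMT2C, KMT2D, LIG4, MAP2K1, MAP2K2, MAPK8, MET, MTOR, MYD88, NFKB1, NOTCH1, SFN, SGK2, SMARCB1, TNFAIP3 and TSC1 lie outside this rule and were chosen after their values were seen. The members and the 44 gene lists were chosen with earlier results of these data known. Promoters came from RefSeq (GRCh38.p14), and 597 of the 770 genes matched, by symbol or else by a synonym held by a single gene. CDH1 was matched by synonym to FZR1, a different gene from that of E-cadherin, and that promoter is counted among those of the tested genes.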

Additional observations from a re-analysis of the deposited data

Results flagged for a closer look

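The response to MS13 differed between the lines for 16 genes by a test of the difference itself (edgeR's quasi-likelihood test of the interaction, in log2 units, PC-3 response minus DU 145 response), and all 16 kept this under the 4 scalings. The response was higher in PC-3 cells for IL6 (2.41), GADD45B (2.29), BDNF (2.08), ID1 (2.07), NFKBIA (1.83), PPP2R2C (1.83), NR4A3 (1.80) and NUPR1 (1.80). It was lower in PC-3 cells for INHBB (-3.89), SPRY4 (-3.61), PTPRR (-3.29), SOCS1 (-2.86), FST (-2.39), PLAT (-2.27), JAG1 (-2.26) and DUSP6 (-2.21). PC-3 and DU 145 cells were grown in different media, so line and medium cannot be told apart in these values. INHBB, SPRY4, PTPRR and FST were under the background limit in DU 145 controls, where SOCS1, JAG1 and PLAT were close to it. NR4A3 was under the limit in PC-3 controls, and PPP2R2C was under it in MS13-treated PC-3 cells.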

How the results depend on the processing

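The count of changed genes stayed within 1.5 times its value under every alternative run, in both directions, but other counts did not. With TMM 57 DEGs fell, and the interaction was higher in PC-3 cells in 129 and lower in 190 genes. With positive probe scaling the interaction was higher in 94 and lower in 217. With counts under the limit set to the limit, 29 DEGs rose and the interaction was higher in 350. At a fold threshold of 1.5 there were 266 DEGs, 93 up and 173 down. The cause of these moves was not tested beyond what the settings themselves change. DESeq2 gave 128 rises and 235 falls, with 43 and 96 DEGs and 276 interactions. Leaving out 1 replicate at a time gave 386 to 396 changed genes (138 to 149 up, 244 to 253 down), 135 to 147 DEGs (44 to 51 up, 88 to 98 down) and 316 to 336 interactions (200 to 220 higher, 112 to 129 lower).

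PC-3 replicates of the same number did not deviate together (correlations -0.20, -0.01 and 0.02 over 431 genes). Between PC-3 samples of unlike number the correlations ran from -0.15 to 0.17. The check thus gave no sign of pairing by number, and it cannot exclude pairing, since the deviations are small and partly counting noise. With the replicate block and 12 separate samples 154 genes rose and 256 fell, and with 12 separate samples and no block the counts were the same.

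Where the test was passed in at least 1 of the settings compared, the sign turned for RAD21 (0.18) and WEE1 (0.17) with TMM and for PPP2R2C (0.028) with counts set to the limit, and it turned for 16 other genes named where neither setting passed the test. The calls of CDKN1B, SOCS1, TNFSF10, CREB5, CREB3L4, BCL2, SGK2, PPP2R2C and IKBKG were lost with DESeq2. With TMM those of ID1, PTPRR, EIF4EBP1, H3F3A, RBX1, BCL2, CREB3L4, CREB5 and PPP2R2C were lost. With counts set to the limit the calls lost were those of BIRC3, SGK2, TNFRSF10B, GADD45G, BCL2, TNFSF10, SOCS1, IKBKG, XRCC4, CTNNB1 and RPS27A. The 199 genes under both background limits had means no higher than the negative probes plus 2 SD, which limits what their changes can show.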
